A study of Mus with 21 samples.

Results

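Cutaneous nerves carry Schwann cells, and the hair follicles and epidermis of mouse skin hold pigment cells. The 8 genes described here mark these relatives of the neural crest: Sox10, Mbp, S100b and Gap43 for Schwann cells, and Mitf, Pmel, Dct and Tyrp1 for the pigment cells. They were listed by symbol, and all 8 were found among the 18806 genes of the count files. Their levels were followed in 21 libraries of skin wounds on Day 4, which fall into 7 groups of 3. The labels call the libraries of a group biological replicates. The mice were wounded on both sides of the back, and the labels do not name the mouse of each library.

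All mice were wild-type C57BL/6 females aged 8 weeks, with splinted full-thickness punch wounds on the back. In the control group the wound received no hydrogel scaffold. In the other 6 groups the wound was covered with GelMA, a photo-crosslinked gelatin hydrogel, adjusted to pH 6.4, 7.4 or 8.4 and loaded with aFGF (FGF1) or bFGF (FGF2), and these groups are named 6.4/aFGF, 7.4/aFGF, 8.4/aFGF, 6.4/bFGF, 7.4/bFGF and 8.4/bFGF. Since no group had a hydrogel without growth factor, the scaffold and the growth factor cannot be told apart in any comparison with the control. The study asked whether the pH of the wound bed changes what each growth factor does.

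Schwann cells and melanocytes both descend from the neural crest, and Sox10 is the transcription factor that both lineages keep. Schwann cells wrap axons and build the myelin sheath from proteins such as Pmp22 and Mbp. After a nerve is cut they lose their myelin programme and become repair cells that guide regrowing axons. In melanocytes, Mitf switches on the genes of the melanosome, the organelle in which Tyr, Tyrp1 and Dct make melanin on fibrils built from Pmel. In the skin of adult mice, most melanocytes sit in the hair follicle and make pigment while the hair grows.

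The libraries held 34362558 to 37817833 counts, and all 8 genes passed edgeR's filter on low counts, as did 15811 genes in all. Levels are given as CPM, the counts of a gene relative to the library's total after scaling by the trimmed mean of M-values (TMM), and as FPKM, which also divides by gene length, where genes are compared with each other. In bulk tissue, fewer cells of a type and less RNA per cell cannot be told apart. In 3 libraries a gene of another tissue was far above every other library: Col2a1, of cartilage, in 7.4/aFGF replicate 3, Alb, of liver, in 8.4/aFGF replicate 2, and Hsd3b1, of steroid-making tissue, in 8.4/bFGF replicate 2. Control replicate 2 also stood apart, with a summed level of 9 adipocyte genes of 960.6 CPM against 10750 and 6000 CPM in the other control libraries.

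The 8 genes were expressed at low to moderate levels per length. Mbp, a protein of the compact myelin sheath, was the most abundant, with a median of 10.6 FPKM over the 21 libraries. Mitf followed at 2.35 FPKM, then Gap43 at 2.26, Dct at 1.79, Sox10 at 1.63, S100b at 1.16, Pmel at 0.898 and Tyrp1 at 0.756 FPKM. Some other genes listed for myelin were well above the pigment genes. Pmp22 had a mean of 80.9 FPKM and Fa2h, an enzyme of myelin lipid synthesis, of 20.6 FPKM. Over the 21 libraries Fa2h had a Pearson's r of log2 CPM of 0.571 with Mbp. Its r was 0.738 with Tyrp1, 0.727 with Pmel and 0.677 with Dct. Which cells made Fa2h and Pmp22 was not tested. All 16 genes of a list of myelin genes and all 12 of a list of Schwann cell identity genes passed the filter.

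The genes of pigment synthesis were measured at unequal levels. Tyr, the enzyme that starts melanin synthesis, had 0 to 32 counts per library, with 1 library at 0, and a median of 0.0318 FPKM. By median FPKM, Dct was 56.3 times, Pmel 28.2 times and Tyrp1 23.8 times as high as Tyr. Of 20 other melanocyte and melanosome genes, 14 passed the filter. The median count was 1 for Slc45a2, Gpr143 and Mc1r and 0 for Oca2, all of which act in melanocytes. These genes and Mlana were picked out after their values were seen. A list of 24 genes of the growing hair follicle, the site of pigment making in mouse skin, was also low, with 12 genes passing the filter and a summed level of 10.5 to 30.1 CPM.

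**Figure D1:**
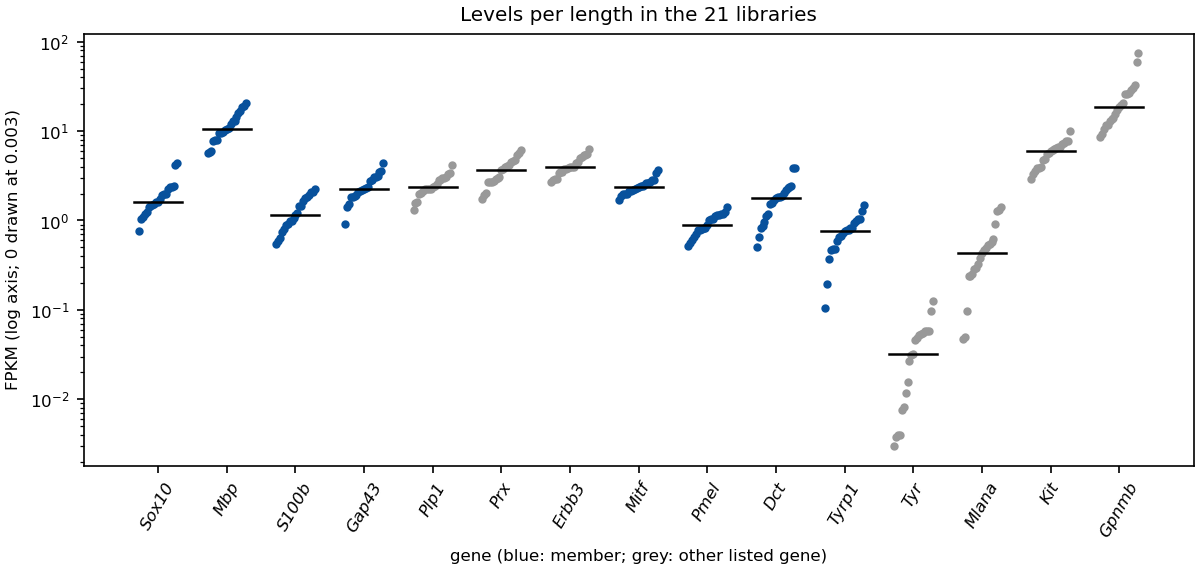
Levels per length (FPKM, log axis) of the 8 listed genes (blue) and of 7 further genes of Schwann and pigment cells (grey) in the 21 libraries. Each point is 1 library, sorted by level within a gene, and the line is the median, from 0.0318 FPKM for Tyr to 18.7 FPKM for Gpnmb.

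Sox10 was the gene with the clearest difference from the control. Its level in the 3 control libraries was 11.0, 6.90 and 11.5 CPM, from 418, 241 and 416 counts. With aFGF it was 6.46, 4.13 and 4.86 CPM at pH 6.4, 6.93, 5.39 and 3.92 CPM at pH 7.4, and 2.30, 5.41 and 4.32 CPM at pH 8.4. With bFGF it was 3.87, 2.94 and 3.27 CPM at pH 6.4, 5.07, 2.86 and 6.89 CPM at pH 7.4, and 4.28, 3.04 and 3.70 CPM at pH 8.4. Of the 18 hydrogel libraries, 17 lay below the lowest control, and the only exception was 7.4/aFGF replicate 1.

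Averaged over the 6 hydrogel groups, Sox10 was 2.25-fold lower than in control, a log2 fold change of -1.17 (standard error, SE, 0.236). In edgeR's quasi-likelihood test the unadjusted p was 0.00013 and the Benjamini-Hochberg adjusted p over all genes was 0.0612, so Sox10 did not pass the threshold of 0.05. Group means fell in the order control at 9.79 ± 2.52, 7.4/aFGF at 5.41 ± 1.504, 6.4/aFGF at 5.15 ± 1.19, 7.4/bFGF at 4.94 ± 2.02, 8.4/aFGF at 4.01 ± 1.58, 8.4/bFGF at 3.68 ± 0.619 and 6.4/bFGF at 3.36 ± 0.473 CPM (SD, n = 3 each). Neighbours in this order overlapped in every case. A two-sided exact permutation test of the mean log2 CPM gave p = 0.00150 over 1330 ways to choose 3 control libraries, where 0.000752 is the smallest p possible. By this test 13.6% of all genes tested had an unadjusted p under 0.05, and 6.77% in the direction of Sox10.

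The call of Sox10 turned on control replicate 2, the lowest of its group. Without it the log2 fold change was -1.37 and the adjusted p = 0.00905 by edgeR, so that Sox10 was called, but so were 1189 genes of all those tested (7.4%). Without the 3 libraries with genes of other tissues the log2 fold change was -1.16 (adjusted p = 0.112 by edgeR). DESeq2 called Sox10 with all 21 libraries (adjusted p = 0.00365), among 0.904% of genes called.

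Most genes of adipocyte and mast cell lists had negative fitted differences in the same comparison, none of them called. All 9 genes of an adipocyte list had negative log2 fold changes against control, with a median of -1.13 and 6 of 9 at an unadjusted p under 0.05, where 10.4% of all genes were lower at that p. Of 10 mast cell genes, 9 were negative and 6 had an unadjusted p under 0.05. The summed adipocyte level was 960.6 to 10750 CPM in control and 599.6 to 8488 CPM in the hydrogel libraries. The mast cell sums overlapped as well, at 382.8, 946.2 and 363.6 CPM in control and 242.6 to 903.4 CPM in the hydrogel libraries. Control replicate 2 had the lowest adipocyte sum and the lowest Sox10 of the control libraries, and 7.4/bFGF replicate 3, with 8488 CPM of adipocyte genes, had Sox10 at 6.89 CPM, while 6.4/aFGF replicate 2 had 5557 CPM with Sox10 at 4.13 CPM. Over the 21 libraries, Pearson's r of Sox10 with the adipocyte score, the mean log2 CPM of the list, was 0.532 (Spearman's rho 0.451; permutation p = 0.0127 and 0.0414, adjusted 0.0837 and 0.19 over 112 relations). It was 0.492 with the mast cell score (rho 0.445; permutation p = 0.0242 and 0.0440, adjusted 0.113 and 0.19). Their part in the Sox10 difference was not tested.

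**Figure D2:**
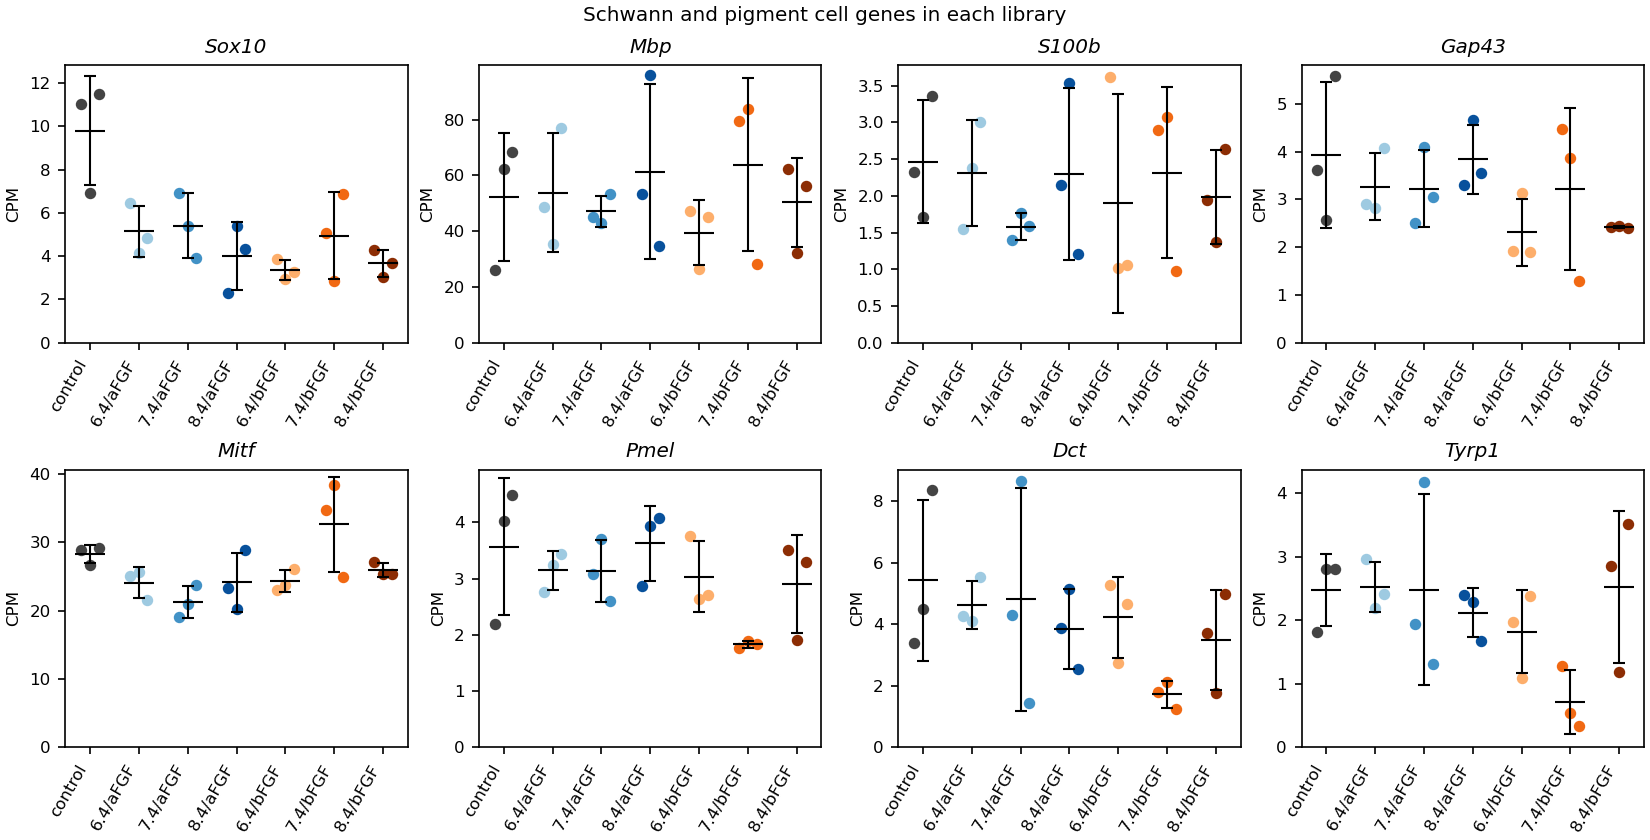
Level (CPM, linear axes from 0) of each listed gene in the 21 libraries by group. Points are libraries, horizontal lines group means and bars the SD (n = 3). Sox10 is highest in control, at 6.90 to 11.5 CPM, and Pmel, Dct and Tyrp1 have their lowest means in 7.4/bFGF.

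None of the 7 other listed genes was called against control. All 8 log2 fold changes of the hydrogels against control were negative, with a median of -0.35, against a median of -0.02 over all genes tested. By edgeR's test 0 of 8 were called, where 1 gene of 15811 was called in all (0.00632%). At an unadjusted p under 0.05, 1 of 8 passed, Sox10, where 16.7% of all genes did and 10.4% were lower. The 7 others had log2 fold changes from -0.59 for Dct to -0.01 for Mbp, with adjusted p-values by edgeR from 0.442 to 0.992.

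Mbp ranged widely within groups. The control libraries had 26.2, 62.3 and 68.5 CPM. The aFGF libraries had 48.6, 35.5 and 77.1 CPM at pH 6.4, 45.0, 42.8 and 53.4 CPM at pH 7.4, and 53.2, 96.0 and 34.8 CPM at pH 8.4. The bFGF libraries had 47.4, 26.3 and 45.0 CPM at pH 6.4, 79.6, 83.8 and 28.2 CPM at pH 7.4, and 62.4, 32.3 and 56.2 CPM at pH 8.4. Every group overlapped every other, and the control mean of 52.3 ± 22.9 CPM (SD, n = 3) lay next to the hydrogel mean of 52.6 ± 20.1 CPM (SD, n = 18). The log2 fold change was -0.01 (SE 0.347) and its sign depended on the setting. Mbp encodes proteins outside of myelin as well, and the counts do not separate them.

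Mbp moved with the mean of the myelin genes, but unevenly with the single genes. Over the 21 libraries the genes most like Mbp included Prx, periaxin of myelinating Schwann cells, with a Pearson's r of 0.938, and Sfrp5, a secreted Wnt antagonist, with 0.901. These r compare log2 CPM across libraries that share their tissue and depth, and are given as a description out of 15810 genes compared. Prx ranged from 8.45 to 29.3 CPM, with its highest value in 8.4/aFGF replicate 2, where Mbp was also highest. With the score of 16 myelin genes, Mbp had an r of 0.957 (rho 0.945; permutation p = 1e-05 for both, the smallest that the 100000 permutations can give, adjusted 0.00112 over the 112 relations). Without the 2 libraries farthest from the median r was 0.953, and within groups 0.965. With the 16 genes taken singly, r had a median of 0.655 and was lowest, at 0.137, for Egr2. Of the 16, 5 were among the 100 genes most like Mbp.

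Skeletal muscle genes varied along with Mbp. The summed level of 10 muscle genes ran from 237.4 CPM in 7.4/bFGF replicate 3 to 14940 CPM in 6.4/aFGF replicate 3, where Mbp had 28.2 and 77.1 CPM. Pearson's r of Mbp with the muscle score was 0.772 (rho 0.808; permutation p = 4e-05 and 3e-05, adjusted 0.00224 and 0.00168), 0.828 without the 2 farthest libraries and 0.804 within groups. With the 10 muscle genes taken singly, r had a median of 0.764, and 6 of them were among the 100 genes most like Mbp. No muscle gene passed an unadjusted p under 0.05 in the hydrogels against control. The part of muscle in the spread of Mbp was not tested.

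S100b, a calcium-binding protein of Schwann cells that other cells also make, was low throughout. The control libraries had 2.32, 1.72 and 3.36 CPM and the 18 hydrogel libraries 0.972 to 3.62 CPM (median 1.85). Its lowest value was in 7.4/bFGF replicate 3, with 33 counts, and its highest in 6.4/bFGF replicate 1, with 128 counts. The groups overlapped, and edgeR's adjusted p for any difference among the 7 groups was 0.932. S100b followed the myelin score (r = 0.741, rho 0.734; permutation p = 0.00018 and 0.00026, adjusted 0.00322 and 0.00971) and the Schwann cell identity score (r = 0.724, rho 0.713; permutation p = 0.00023 and 0.00045, adjusted 0.00322 and 0.0103). Without the 2 libraries farthest from its median these r were 0.636 and 0.63, and within groups 0.756 and 0.75.

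Gap43, a protein of growing axon tips that Schwann cells without myelin also make, had 3.61, 2.58 and 5.59 CPM in control. The hydrogel libraries ran from 1.30 to 4.66 CPM (median 2.98), and 7 of 18 were below the lowest control. All 3 libraries of 8.4/aFGF, at 3.30, 4.66 and 3.56 CPM, were above the 3 of 8.4/bFGF, at 2.42, 2.45 and 2.40 CPM. The log2 fold change was 0.67 (SE 0.382, adjusted p = 0.336 by edgeR), and 26.9% of all genes tested did not overlap between these groups. It was 0.51 without the 3 libraries with genes of other tissues (adjusted p = 0.681 by edgeR). Gap43 followed the Schwann cell identity score (r = 0.687, rho 0.625; permutation p = 0.00062 and 0.00273, adjusted 0.00772 and 0.034), with 0.547 without the 2 farthest libraries and 0.617 within groups.

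Correlations among the Schwann cell genes were uneven. Of the 28 pairs of listed genes, Mbp and S100b varied together (r = 0.678, rho 0.675; permutation p = 0.00085 and 0.00099, adjusted 0.00595 and 0.00924), with an r of 0.74 without the 2 farthest libraries and of 0.684 within groups. S100b and Gap43 had an r of 0.534 that did not pass the adjustment (rho 0.471; permutation p = 0.0121 and 0.0325, adjusted 0.0678 and 0.152). Sox10 had an r of -0.02 with Mbp, 0.13 with S100b and 0.20 with Gap43, all short of the threshold. With the myelin score its r was 0.101, and with the Schwann cell identity score 0.438 (rho 0.368; permutation p = 0.0459 and 0.102, adjusted 0.156 and 0.317). The difference between these r and those of S100b and Gap43 was not tested. Sox10 did follow the score of the melanocyte and melanosome genes (r = 0.741, rho 0.606; permutation p = 0.00017 and 0.00457, adjusted 0.00322 and 0.0497), but r fell to 0.475 without the 2 libraries farthest from its median, which are control libraries, and was 0.544 within groups. The listed pigment genes had lower r with this score, at 0.329 for Dct, 0.179 for Tyrp1, 0.131 for Pmel and -0.00507 for Mitf. With the single genes Dct, Pmel and Tyrp1, Sox10 had an r of 0.272, 0.206 and 0.154. The genes most like Sox10 were Igfbp5 (r = 0.802), a secreted binding protein of insulin-like growth factors, Slc25a22 (0.797), a mitochondrial glutamate carrier, and Slc35g1 (0.792). Among the 100 genes most like it were 4 of 10 mast cell genes. Of the 12 Schwann cell identity, 16 myelin and 14 melanocyte and melanosome genes, 0 were among them. Which cells made Sox10 was not tested.

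The other Schwann cell genes had no call either. In the hydrogels against control 11 of 12 identity genes had negative log2 fold changes (median -0.32), with 0 at an unadjusted p under 0.05 in edgeR's test. Of the most abundant, Scn7a, a sodium channel relative, had a log2 fold change of -0.48, Erbb3, the receptor for axonal neuregulin, of -0.28 and Ngfr, the low-affinity neurotrophin receptor of repair cells, of -0.57 (adjusted p = 0.526, 0.389 and 0.6 by edgeR). Of 16 myelin genes 9 were positive and 7 negative, with 3 lower at an unadjusted p under 0.05 and a median of 0.07. Of 9 tested genes of repair Schwann cell signals 5 were positive and 4 negative (median 0.45), with 2 lower and 0 higher at an unadjusted p under 0.05, and Jun, the regulator of the repair state, was at 188.3 CPM in control and 183.7 CPM in the hydrogel libraries (log2 fold change -0.04, adjusted p = 0.904 by edgeR).

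No pigment gene passed the test against control, and the lowest means of Tyrp1, Dct and Pmel were all in 7.4/bFGF. Tyrp1, an enzyme of the melanin pathway, had 1.28, 0.537 and 0.324 CPM in 7.4/bFGF, from 51, 21 and 11 counts. In the 18 other libraries it had 1.10 to 4.18 CPM, and the 3 libraries of 7.4/aFGF had 1.94, 4.18 and 1.32 CPM. The 7.4/aFGF and 7.4/bFGF libraries did not overlap, although the lowest and the highest were neighbours at 1.32 and 1.28 CPM. The control had 1.82, 2.81 and 2.81 CPM.

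Dct, the dopachrome tautomerase of the same pathway, had 1.79, 2.12 and 1.24 CPM in 7.4/bFGF and 4.31, 8.66 and 1.45 CPM in 7.4/aFGF. The groups overlapped through 7.4/aFGF replicate 3, the library with Col2a1. The control had 3.40, 4.49 and 8.38 CPM, and the highest of the 21 libraries was 7.4/aFGF replicate 2.

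Pmel, the protein of the melanosome's fibrils, had 1.76, 1.89 and 1.83 CPM in 7.4/bFGF, the narrowest group, and 3.08, 3.71 and 2.60 CPM in 7.4/aFGF, with no overlap. The control had 2.19, 4.04 and 4.49 CPM. The gene overlaps Cdk2, and at its ends Rab5b and Dgka, in the RefSeq table, and Cdk2 had a median of 10.7 FPKM against 0.898 FPKM for Pmel. Whether the counts were assigned by strand is not given in the sources used here, so part of the Pmel counts may belong to its neighbours.

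Mitf ran the other way. It had 34.7, 38.4 and 24.9 CPM in 7.4/bFGF, against 19.1, 21.0 and 23.8 CPM in 7.4/aFGF, with no overlap, and 28.9, 26.7 and 29.2 CPM in control. Mast cells, macrophages and osteoclasts also use Mitf, and the counts do not separate its isoforms. Its level per length was above that of each pigment gene, and its range over the 21 libraries, 19.1 to 38.4 CPM, was the narrowest of the 8 genes at 2.02-fold between the lowest and the highest library, against 12.9-fold for Tyrp1.

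Between aFGF and bFGF at pH 7.4, the log2 fold changes were 1.78 for Tyrp1 (SE 0.524), 1.48 for Dct (SE 0.534), 0.78 for Pmel (SE 0.285) and -0.62 for Mitf (SE 0.149). None was called by edgeR: the unadjusted p-values were 0.00349, 0.0133, 0.0146 and 0.000713, and the adjusted ones 0.169, 0.233, 0.235 and 0.161. Of the 8 listed genes 0 were called, where 12 of 15811 genes were (0.0759%). At an unadjusted p under 0.05, 3 were higher and 1 was lower with aFGF, where 14.8% of all genes passed, 7.99% higher and 6.85% lower. Groups did not overlap for Pmel, Tyrp1 and Mitf, and for 20% of all genes. DESeq2 called Mitf (adjusted p = 0.0244) and Tyrp1 (adjusted p = 0.0374), with 1.2% of genes called.

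The size of these differences moved with single libraries. Without 7.4/aFGF replicate 2 the log2 fold change was 1.18 for Tyrp1 and 0.74 for Dct, and without 7.4/bFGF replicate 1 it was 2.53 for Tyrp1. Without 7.4/bFGF replicate 2 the value for Mitf was -0.49. Without the 3 libraries with genes of other tissues, which leaves out 7.4/aFGF replicate 3, the values were 2.09 for Tyrp1, 1.91 for Dct, 0.89 for Pmel and -0.71 for Mitf (adjusted p = 0.0916, 0.081, 0.149 and 0.0873 by edgeR). The direction was the same in each of these settings.

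**Figure D3:**
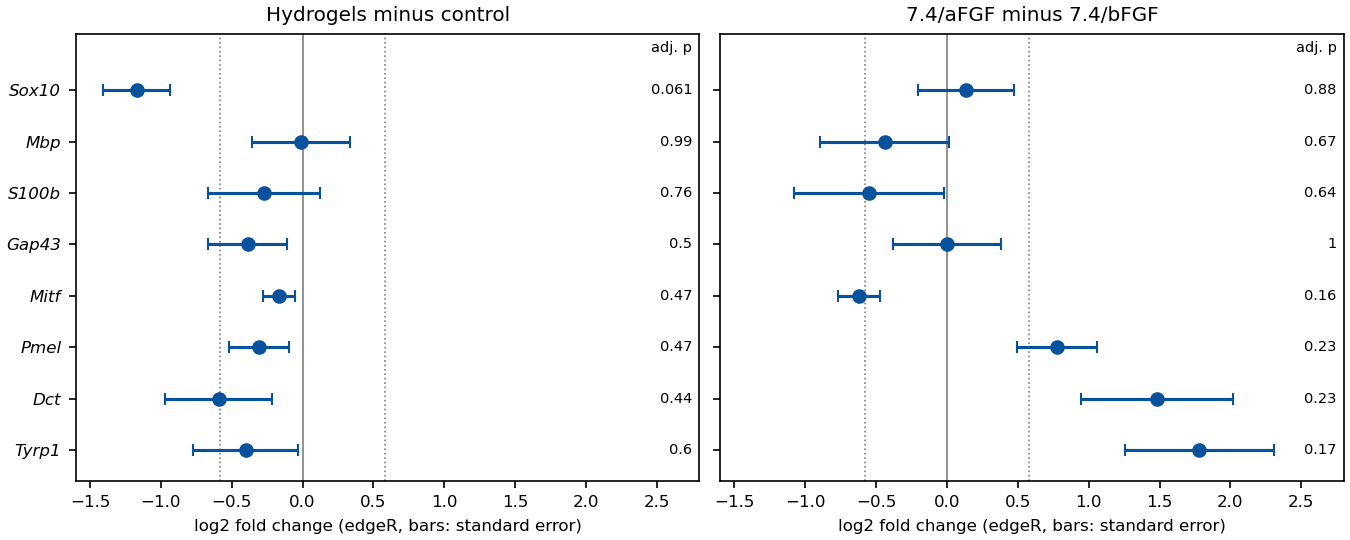
Log2 fold changes (points, bars are the standard error, edgeR over 21 libraries) of the 8 listed genes for the hydrogels minus control (left) and for 7.4/aFGF minus 7.4/bFGF (right), with the adjusted p at the right edge and dotted lines at 0.58 in both directions. Sox10 lies at -1.17 on the left, and Tyrp1, Dct and Pmel lie at 1.78, 1.48 and 0.78 on the right with Mitf at -0.62.

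The comparisons of pH among the bFGF groups use the same 7.4/bFGF libraries, so their values are not separate evidence. In 6.4/bFGF against 7.4/bFGF, the log2 fold changes were 1.34 for Tyrp1, 1.30 for Dct, 0.73 for Pmel and -0.43 for Mitf, with unadjusted p-values from 0.0112 to 0.0267 and an adjusted p of 0.624 for each in edgeR. Pmel and Dct did not overlap between the groups, where 15.1% of all genes did not, and 7.82% of all genes had an unadjusted p under 0.05. In 8.4/bFGF against 7.4/bFGF they were 1.81 for Tyrp1, 1.02 for Dct, 0.67 for Pmel and -0.33 for Mitf (adjusted p = 0.999 by edgeR for each), with 3 of 8 at an unadjusted p under 0.05 and 4.07% of all genes. Without the 3 libraries with genes of other tissues, which leaves out 8.4/bFGF replicate 2, they were 2.14, 1.34, 0.90 and -0.32. With all libraries Pmel alone of the 8 did not overlap, where 11.7% of all genes did not.

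Among the aFGF groups no listed gene was called. In 6.4/aFGF against 7.4/aFGF the 8 log2 fold changes ran from -0.07 for Sox10 to 0.55 for S100b, and in 8.4/aFGF against 7.4/aFGF from -0.43 for Sox10 to 0.54 for S100b, with 0 of 8 at an unadjusted p under 0.05 in edgeR's test (7.25% and 4.88% of all genes). Leaving out the 3 libraries with genes of other tissues takes 7.4/aFGF replicate 3 and 8.4/aFGF replicate 2 from these groups. In that setting 8.4/aFGF against 7.4/aFGF gave -0.89 for Sox10, -1.01 for Dct and 0.38 for Mitf. Their unadjusted p-values by edgeR were 0.044, 0.0483 and 0.0488, and the adjusted ones 0.76, 0.777 and 0.777. The percentages above are for all libraries, and the share of all genes in the smaller setting is not given here. The difference between the pH effects with aFGF and with bFGF was tested as an interaction. For Mitf it was 0.60 at pH 6.4 (SE 0.211, edgeR unadjusted p = 0.0108, adjusted 0.88) and 0.52 at pH 8.4 (SE 0.211, unadjusted p = 0.0254, adjusted 0.997). For Tyrp1 it was -2.03 at pH 8.4 (SE 0.722, edgeR unadjusted p = 0.0122, adjusted 0.997) and -1.31 at pH 6.4 (unadjusted p = 0.0867). With all libraries, 5.14% of all genes had an unadjusted p under 0.05 at pH 6.4 and 4.28% at pH 8.4, and no gene was called. With all libraries 1 of the 8 genes, Mitf, had an unadjusted p under 0.05 by edgeR at pH 6.4. At pH 8.4 there were 2, Mitf and Tyrp1, so Dct passed at neither pH. Without the 3 libraries with genes of other tissues the interaction of Dct was -1.78 at pH 6.4 and -2.35 at pH 8.4. Its unadjusted p-values by edgeR were 0.00737 and 0.00237, and the adjusted ones 0.777 and 0.981. The share of all genes under 0.05 in that setting is not given here.

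At pH 6.4 and pH 8.4 no listed gene had an unadjusted p under 0.05 between the growth factors in edgeR's test, where 7.15% and 20.1% of all genes did. No gene of the 15811 was called at pH 6.4, and 0.0632% were at pH 8.4. In 6.4/aFGF against 6.4/bFGF the largest difference was that of Sox10, with a log2 fold change of 0.62 (SE 0.342, adjusted p = 0.703 by edgeR). Its libraries did not overlap, as for 14.5% of all genes. At pH 8.4 it was that of Gap43, given above. Over all 7 groups edgeR called 0 of the 8 genes for any difference, where 18 genes were called (0.114%), and Sox10 came closest, with an adjusted p of 0.122, followed by Mitf with 0.184. DESeq2 called Sox10 for any difference, but with 10.9% of genes called.

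Pmel, Dct and Tyrp1 varied together from library to library. Dct and Tyrp1 had a Pearson's r of 0.83 (rho 0.777; permutation p = 1e-05, the smallest possible here, and 6e-05, adjusted 0.00028 and 0.00168 over the 28 pairs), with 0.797 without the 2 farthest libraries and 0.774 within groups. Pmel and Dct had an r of 0.774 (rho 0.726; permutation p = 4e-05 and 0.00031, adjusted 0.00056 and 0.00434), with 0.684 and 0.654 in the same order. For Pmel and Tyrp1 r was 0.73 (rho 0.642; permutation p = 0.00015 and 0.00215, adjusted 0.0014 and 0.015), with 0.677 and 0.489. Without the 3 libraries with genes of other tissues the 3 values were 0.858, 0.771 and 0.726. Mitf had an r of -0.41 with Pmel, -0.38 with Dct and -0.36 with Tyrp1, none of which passed the adjustment. Without the 2 farthest libraries these were -0.05, -0.18 and -0.05, and within groups -0.07, -0.16 and 0.13, with the sign turned for Tyrp1.

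Tyr was the gene most like Dct (r = 0.852), although it had at most 32 counts. It had 14, 15 and 24 counts in control, 3, 32 and 1 in 7.4/aFGF and 1, 2 and 0 in 7.4/bFGF. At pH 7.4 only 7.4/aFGF replicate 2, where Dct and Tyrp1 were also highest, was above the 3 counts that a count of 0 allows. The next genes were Slc39a11 (0.841), a zinc transporter, and Serpinb7 (0.838), a protease inhibitor of keratinocytes. For Tyrp1 they were Hal (0.865), the histidase of the epidermis, Dct (0.83) and Serpinb7 (0.794), and for Pmel Bnipl (0.862), Ly6g6c (0.832) and Cst6 (0.83), the last a protease inhibitor of the cornifying epidermis.

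Keratinocyte genes varied along with these genes. The summed level of 10 keratinocyte genes, Krt14, Krt6a and Krt16 foremost, ran from 3097 CPM in 7.4/bFGF replicate 3 to 8123 CPM in 7.4/aFGF replicate 2, which were the libraries with the lowest and the highest Tyrp1. Pearson's r with the keratinocyte score was 0.75 for Pmel (rho 0.706), 0.71 for Dct (rho 0.695) and 0.758 for Tyrp1 (rho 0.683), with permutation p-values from 6e-05 to 0.00093 and adjusted ones from 0.00224 to 0.013. Without the 2 farthest libraries they were 0.748, 0.622 and 0.621, and within groups 0.652, 0.637 and 0.703. In 7.4/aFGF against 7.4/bFGF all 10 keratinocyte genes had positive log2 fold changes (median 0.49), 1 of them at an unadjusted p under 0.05, while the 3 libraries of 7.4/bFGF had 5310, 5289 and 3097 CPM and those of 7.4/aFGF 3881, 8123 and 6081 CPM. The part of the keratinocytes in the pigment genes was not tested.

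**Figure D4:**
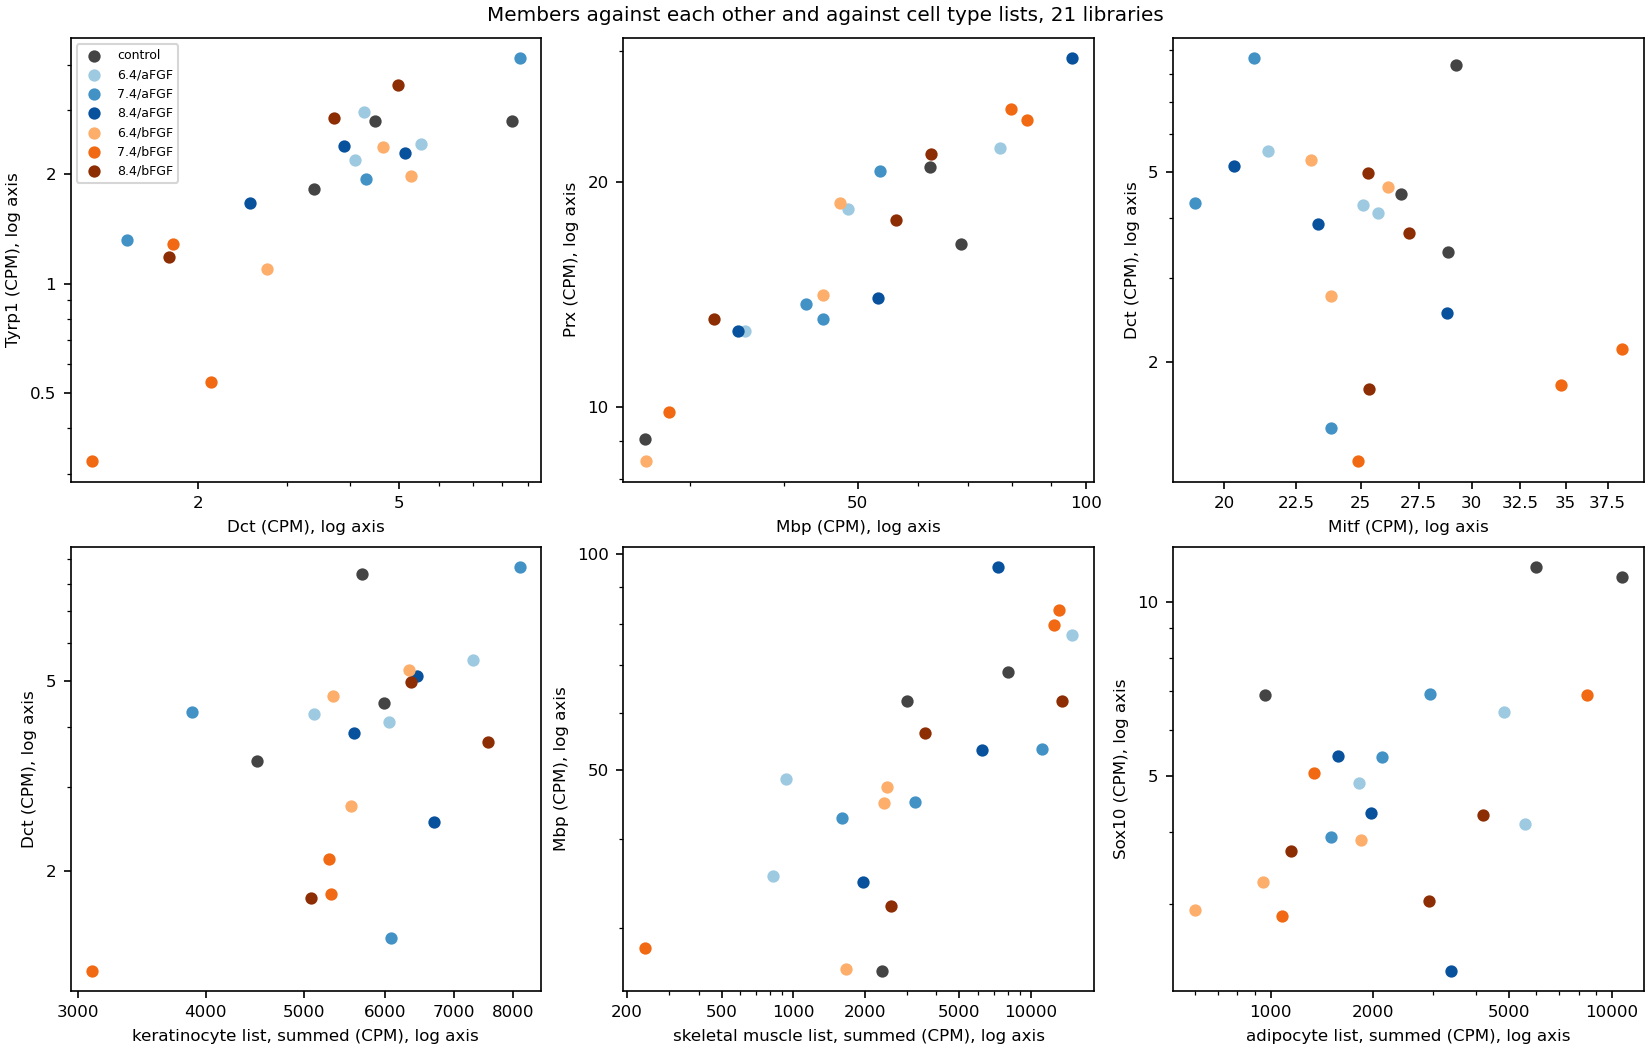
Listed genes plotted against each other and against cell type lists in the 21 libraries (CPM, log axes, colours are groups). Dct and Tyrp1 (r = 0.83) and Mbp and Prx (r = 0.938) rise together, Dct does not rise with Mitf, and the lower panels set Dct against keratinocyte, Mbp against skeletal muscle and Sox10 against adipocyte genes.

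The other genes of melanocytes and melanosomes were tested as well. In the hydrogels against control 11 of 14 had negative log2 fold changes (median -0.26), with 2 lower at an unadjusted p under 0.05 and 0 called. In 7.4/aFGF against 7.4/bFGF, 5 of 14 were positive and 1, Tyr, passed an unadjusted p under 0.05 (log2 fold change 3.49, standard error 1.23, adjusted p = 0.225 by edgeR). Its value rested on 7.4/aFGF replicate 2 and was 1.00 without it (adjusted p = 0.755 by edgeR). The most abundant were Ednrb, the endothelin receptor of melanoblasts that vessels also carry, at a mean of 30.95 FPKM, Gpnmb, a glycoprotein of melanosomes and of macrophages, at 23.3 FPKM, and Myo5a, the motor that carries melanosomes, at 9.49 FPKM. Ednrb had 167.5 CPM in control and 172.2 CPM in the hydrogel libraries, and Myo5a 131.6 and 146.2 CPM (adjusted p = 0.979 and 0.601 by edgeR). Of the signals that skin sends to pigment cells, Kitl, the ligand of Kit, had 51.5 and 48.3 CPM (log2 fold change -0.09, adjusted p = 0.879 by edgeR).

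Gpnmb was the gene of this list closest to the threshold. It had 217.9, 134.7 and 272.4 CPM in control and 35.6 to 112.9 CPM (median 62.8) in the 18 hydrogel libraries, all of which were below the lowest control. The log2 fold change was -1.64 (SE 0.274, adjusted p = 0.0584 by edgeR), and 0.253% of all genes had every hydrogel library below every control library. Atp6v0d2, a proton pump subunit of osteoclasts and macrophages, picked out after its values were seen, had 27.8, 6.67 and 24.8 CPM in control and 2.28 to 9.28 CPM in the hydrogel libraries (log2 fold change -1.93, adjusted p = 0.0612 by edgeR). Among the 10 macrophage and osteoclast genes, 3 were lower at an unadjusted p under 0.05, and Csf1r, the receptor that macrophages depend on, had 644.6 CPM in control and 694.8 CPM in the hydrogel libraries.

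**Figure D5:**
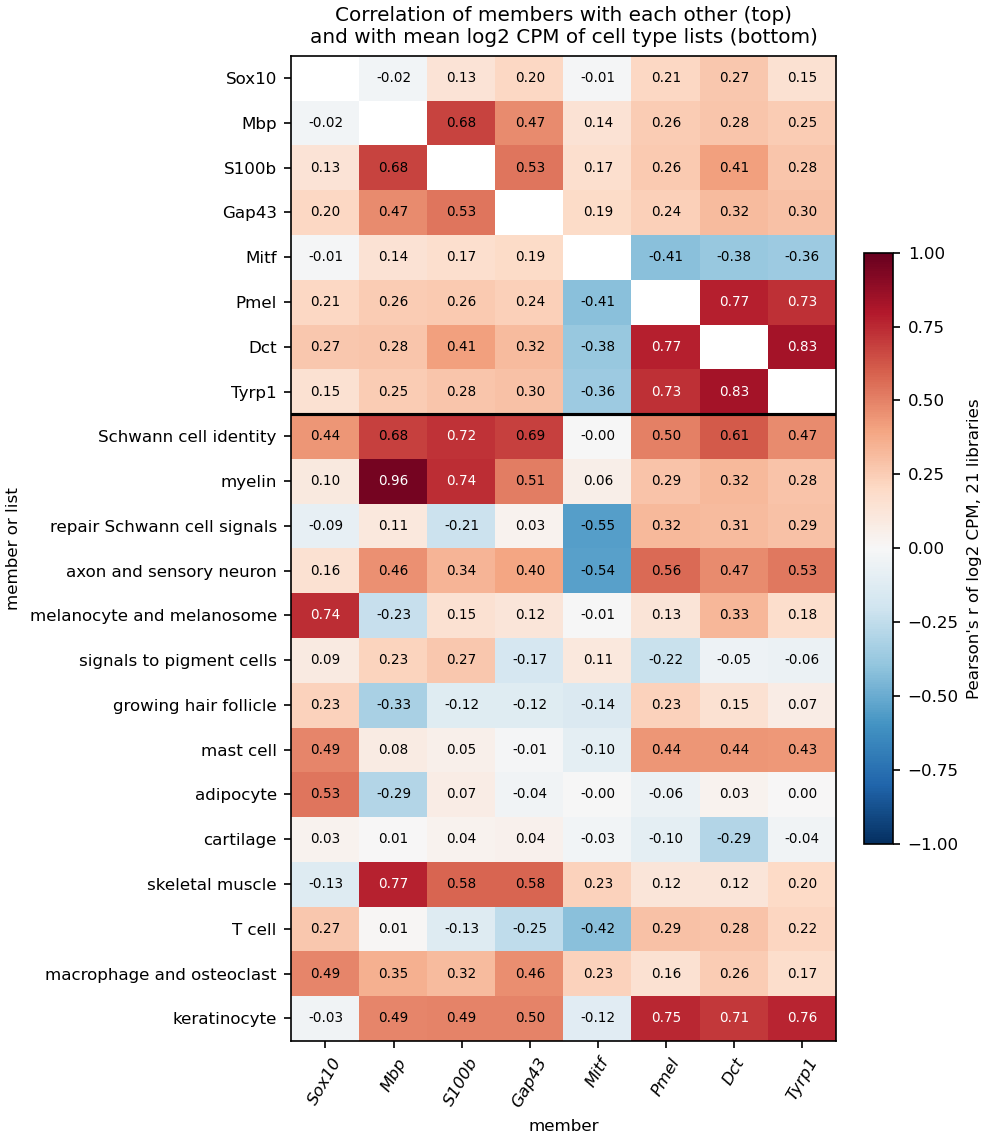
Pearson's r of log2 CPM over the 21 libraries (colour and number) between the listed genes (top) and between each of them and the mean log2 CPM of 14 cell type lists (bottom). Pmel, Dct and Tyrp1 have r of 0.73 to 0.83 with each other and of 0.71 to 0.758 with the keratinocyte list. Mbp has 0.96 with the myelin list and 0.772 with the skeletal muscle list. Mitf is negative with the pigment genes, though not with Tyrp1 within groups.

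Replicate 3 of 7.4/bFGF was the lowest of all 21 for S100b, Gap43, Dct and Tyrp1 and for the muscle and keratinocyte sums, while its Sox10, at 6.89 CPM, was among the highest of the hydrogel libraries and its adipocyte sum, at 8488 CPM, was the highest of them. Without it the log2 fold change between 7.4/aFGF and 7.4/bFGF was 1.44 for Tyrp1, 1.295 for Dct, 0.775 for Pmel and -0.78 for Mitf. The order of the group means for Mbp, S100b, Gap43, Mitf, Dct and Tyrp1 had overlapping ranges between every pair of neighbours. For Pmel the neighbours overlapped except 8.4/bFGF and 7.4/bFGF, at 2.91 ± 0.872 and 1.83 ± 0.0643 CPM (SD, n = 3 each).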

How the data were processed

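Raw counts per gene and FPKM values were deposited by the authors for each of the 21 libraries, made with a stranded mRNA kit. The submitters' processing notes give the build GRCm39, and the aligner, counter, annotation and strand setting are not given in the sources used here. The deposited FPKM equal the count over a fixed length per gene and the library's total, checked over 14938 genes whose recovered lengths varied by up to 9.85e-05%. In the RefSeq table of another build, used for names and neighbours, 99.2% of symbols were found.

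The analysis used edgeR 4.0.16 in R 4.3.3 (TMM, default filter by group, quasi-likelihood test, a mean per group over 21 libraries, Benjamini-Hochberg adjustment over 15811 genes). A gene was called at an adjusted p under 0.05 and, except for any difference among the 7 groups, a log2 fold change beyond 0.58. Log2 CPM used a prior count of 2. Correlations over libraries had 100000 permutations, and the 112 relations of listed genes with list scores were chosen once the data had been examined. DESeq2 1.42.0, limma 3.58.1 on log2(FPKM + 1) and log2(FPKM + 0.1), RLE scaling, other filters, a replicate block and leaving out libraries were alternatives. The fits were tested on simulated data.

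The listed genes and the gene lists were chosen with earlier results of these data known. Named were the 8 genes, the 3 genes most correlated with each, and from each list the called genes and the 3 highest by mean FPKM. Some genes that these rules name are not reported here. Other names were chosen after their values were seen. Replicates are biological replicates by their labels, with the mouse not named, and those of a group differed beyond counting noise. Replicate numbers were not used to pair libraries in the main fit. Of 63 same-numbered pairs 14 had correlated deviations over 0.1 (range -0.638 to 0.423). Pairs with different numbers were not compared, so these values cannot show whether the numbers mark a pairing. No genome, promoter or protein sequence was used here.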

Additional observations from a re-analysis of the deposited data

How the results depend on the processing

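With edgeR over all 21 libraries, 0 of the 8 genes were called in each of the 11 comparisons, and with the replicate number as a block also 0 in each. The block moved the calls over all genes from 12 to 7 for aFGF against bFGF at pH 7.4, from 10 to 8 at pH 8.4, from 18 to 10 for any difference and from 1 to 2 for the hydrogels against control. DESeq2 called 1 gene (Sox10) for the hydrogels against control, 2 (Mitf and Tyrp1) at pH 7.4 and 1 (Sox10) for any difference. Leaving out each library gave 0 to 1 calls for the hydrogels against control (1 without control replicate 2). The log2 fold change of Sox10 then ran from -1.37 to -1.04, with adjusted p-values by edgeR from 0.00905 to 0.574. The permutation test found 1 to 2 genes (2, Sox10 and Pmel, without control replicate 1), and 4 to 5 of the 28 pairs passed the adjustment, which need not be the same pairs. The sign of Mbp against control turned to 0.0102 with DESeq2 and with RLE scaling, to 0.00394 without a filter, to 0.0152 on log2(FPKM + 1) and to 0.0191 on log2(FPKM + 0.1), and ran from -0.33 to 0.23 with each library left out. That of S100b ran from -0.47 to 0.0184 and turned without control replicate 3. The cause was not tested. Of the single-gene alternatives, 645 kept direction and side of the threshold, 16 turned and 4 passed it.

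Over all genes, DESeq2 called 170 for the hydrogels against control (edgeR 1), 225 and 555 at pH 7.4 and 8.4 (12 and 10), 2050 for any difference (18), and 19, 31, 10, 3, 21, 3 and 2 in the comparisons where edgeR called 0. A filter of at least 10 counts in every library gave 5 for the hydrogels against control, and leaving out each library 0 to 1189. Leaving out control replicate 2 gave 1189 there, 31 at pH 7.4, 319 at pH 8.4 and 864 for any difference. Leaving out 7.4/bFGF replicate 1 gave 0 at pH 7.4 and 7 for any difference, and 6.4/bFGF replicate 2 gave 4 at pH 8.4. Fitting only the libraries compared gave 0 and 1 at pH 7.4 and 8.4, no filter 8 and 6 (12 for any difference), and at least 10 counts 24 at pH 8.4. Without the 3 libraries with genes of other tissues, 5 were called at pH 7.4, 0 at pH 8.4, 0 for the hydrogels and 3 for any difference. In the comparisons where edgeR called 0, 643 to 1237 genes had an unadjusted p under 0.05. The low counts of Tyrp1, S100b and Pmel and 3 libraries a group limit the size of a difference that can be seen.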

Other observations

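Genes of axons showed values that no comparison above used. Of 10 tested axon and sensory neuron genes, 3 were positive and 7 negative in the hydrogels against control (median log2 fold change -0.09), and 5 were positive and 5 negative in 7.4/aFGF against 7.4/bFGF. Tubb3, the tubulin of neurons, had 12.7 CPM in control and 18.98 CPM in the hydrogel libraries (log2 fold change 0.56, adjusted p = 0.239 by edgeR). Nefh and Nefl, neurofilaments of axons, were low, with 0 to 50 and 4 to 111 counts per library, and had log2 fold changes of 3.54 and 2.78 in 7.4/aFGF against 7.4/bFGF (adjusted p = 0.166 and 0.203 by edgeR). Tac1, the precursor of substance P, had a mean of 0.0743 CPM in 7.4/bFGF and 1.18 CPM in control. Of the 10 genes, 3 were higher in 7.4/aFGF than in 7.4/bFGF at an unadjusted p under 0.05, where 7.99% of all genes were, and 0 were called. These genes, apart from Tubb3, were picked out after their values were seen.

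Egr2, the regulator of the myelin programme that immune cells also use, had 36.7 ± 11.7 CPM in control (SD, n = 3) and 20.9 ± 8.19 CPM in the hydrogel libraries (SD, n = 18), a log2 fold change of -0.85 (adjusted p = 0.163 by edgeR). Edn3, a ligand for the melanocyte endothelin receptor, had 0 to 44 counts per library and a log2 fold change of -2.15 against control (adjusted p = 0.157 by edgeR). Mlana, a melanosome protein, had 1 to 28 counts and was highest in control replicate 3, with 16 of 18 hydrogel libraries below the lowest control (log2 fold change -1.42, adjusted p = 0.248 by edgeR). None of these passed the threshold, and all were picked out after their values were seen.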
